A study of Mus musculus with 4 samples.

Results

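The E11.5 lateral lingual swellings (LLS) were compared with the E9.5 medial mandibular arch (MMA), which are 2 of the 4 tissues of a microarray series on the mouse mandibular arch and tongue. The pair sets the tongue-forming outgrowth against the youngest arch tissue of the series, and genes entered by the detection flag of the scanner software on these 2 arrays. Of 26619 genes on the array, 16885 were compared. All embryos came from timed-pregnant ICR mice, an outbred stock, with no mutant allele and no treatment of the embryos named in the labels, and the dams were killed after inhalation anaesthesia. MMA was the medial part of the mandibular arch of 12 pooled embryos and LLS the lingual swellings of 4 pooled embryos, each dissected from the head and hybridised once to a single-colour array. The region label of LLS also reads medial. The other 2 arrays, from E11.5 lateral mandibular arch (LMA) and E14.5 tongue (T), 4 embryos pooled in each, are used only for values set beside those of the pair. Because MMA and LLS differ in both age and structure, the stage and the place of dissection cannot be told apart.

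The mandibular arch is the first pharyngeal arch's lower part. It starts as a core of mesoderm surrounded by neural crest mesenchyme, wrapped in ectoderm outside and endoderm inside. The lingual swellings bulge from its inner floor, their mesenchyme comes from neural crest, and muscle precursors from the occipital somites migrate into them and form most tongue muscle. Sorting of cell types is not described in the labels, so a value is read as that of the whole dissected tissue. Throughout, fewer cells of a type and less RNA per cell cannot be told apart.

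All 4 arrays lay on 1 slide. Spots well above background made up 57.0% in MMA and 59.3% in LLS, no array had a saturated spot (0 in each), and 15703 genes were detected in MMA and 16365 in LLS. Levels are given as a scaled signal, in which 100 is the 75th percentile of the array, and differences are log2 of LLS over MMA, so that 1 is 2-fold and a negative value is lower in LLS. With 1 array per tissue there was no spread between replicates and no test, and the number of arrays limits the precision. The SD of a single-spot log2 difference was 0.059 over 207 probes printed 10 times, and the scanner software's own log2 error had a median of 0.20. Neither covers differences between pools. A gene that was not well above background in 1 tissue has only a bound, written "at least". First-arch mesenchyme is known to lack most Hox transcripts, and 30 of 39 Hox genes were not well above background in either tissue. The extraction text of the labels speaks of cerebellum, but 9 of 16 cerebellar markers, among them Pax6, Atoh1, En1, Ptf1a and Calb1, were not well above background in either tissue. Among the 7 others, Pcp2 was 11.1 in MMA and 128 in LLS and Cbln1 188 and 24.2, and the summed signal was 297 in MMA over the 7 markers well above background there and 246 in LLS over 5. Later summed signals of markers likewise cover those well above background in each tissue.

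Higher in LLS by 2-fold or more were 1629 genes, 9.65% of those compared, and at least 2-fold lower were 946, or 5.60%. Bounds made up 370 of the higher and 153 of the lower. The median of all genes compared was -0.06. Past 16-fold lay 67 genes on the higher and 13 on the lower side. Of 971 of these called genes that had a second usable probe, 880 (90.6%) had the same direction by every probe.

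**Figure D1:**
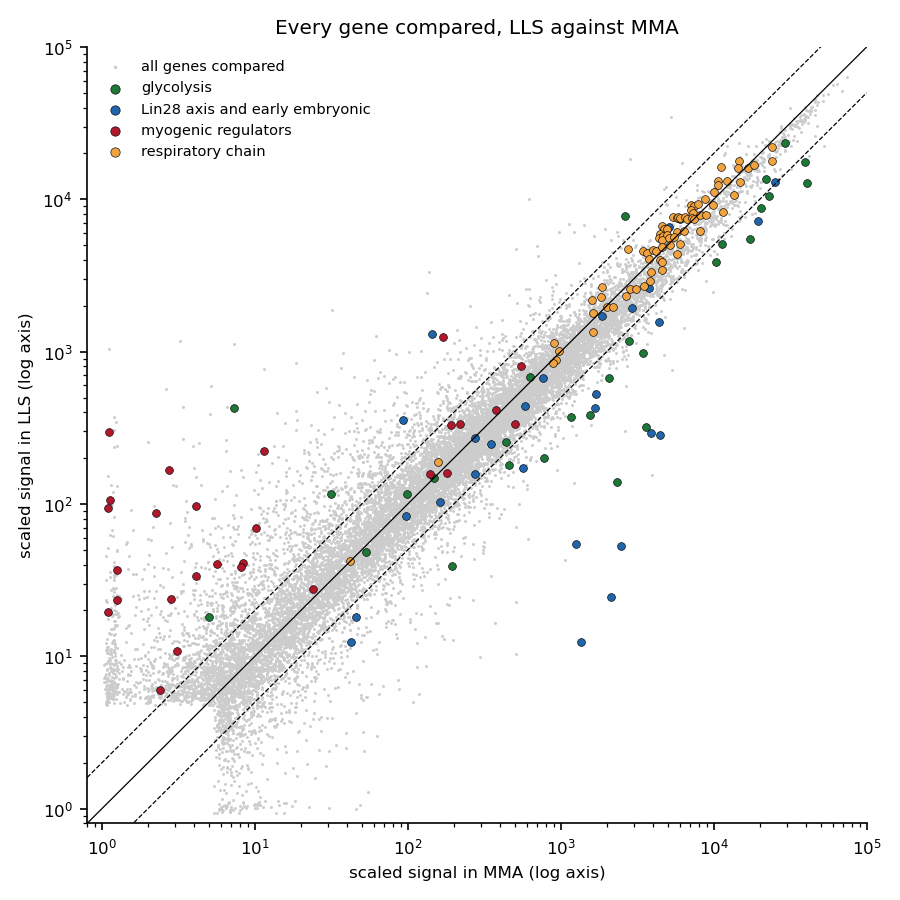
Scaled signal of each gene compared in MMA (horizontal) and LLS (vertical), both on log axes; the solid line marks equal levels and the dashed lines 2-fold differences. Respiratory chain genes lie inside the dashed lines (0 of 76 outside), while 17 of 29 glycolysis genes lie below them and 18 of 27 myogenic regulators above.

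Against these shares, among gene lists with 10 or more members compared, those with the largest part lower in LLS were glycolysis (17 of 29), amino acid, serine and one-carbon enzymes (13 of 27) and early embryonic genes (13 of 27). Lists with the largest part of members higher were myogenic regulators (18 of 27) and macrophage and leukocyte markers (13 of 21). Next came forkhead genes counted with the noncoding RNA gene Fendrr (10 of 17), collagens (20 of 34) and the retinoic acid pathway (10 of 18). A member well above background only in LLS was compared through LLS alone, and most of the higher myogenic regulators were such bounds. Shares over members measured in both tissues are not given. Housekeeping complexes stayed almost wholly inside 2-fold: 0 of 82 cytosolic ribosomal protein genes, 0 of 76 respiratory chain genes and 1 of 78 mitochondrial ribosomal protein genes passed it.

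**Figure D2:**
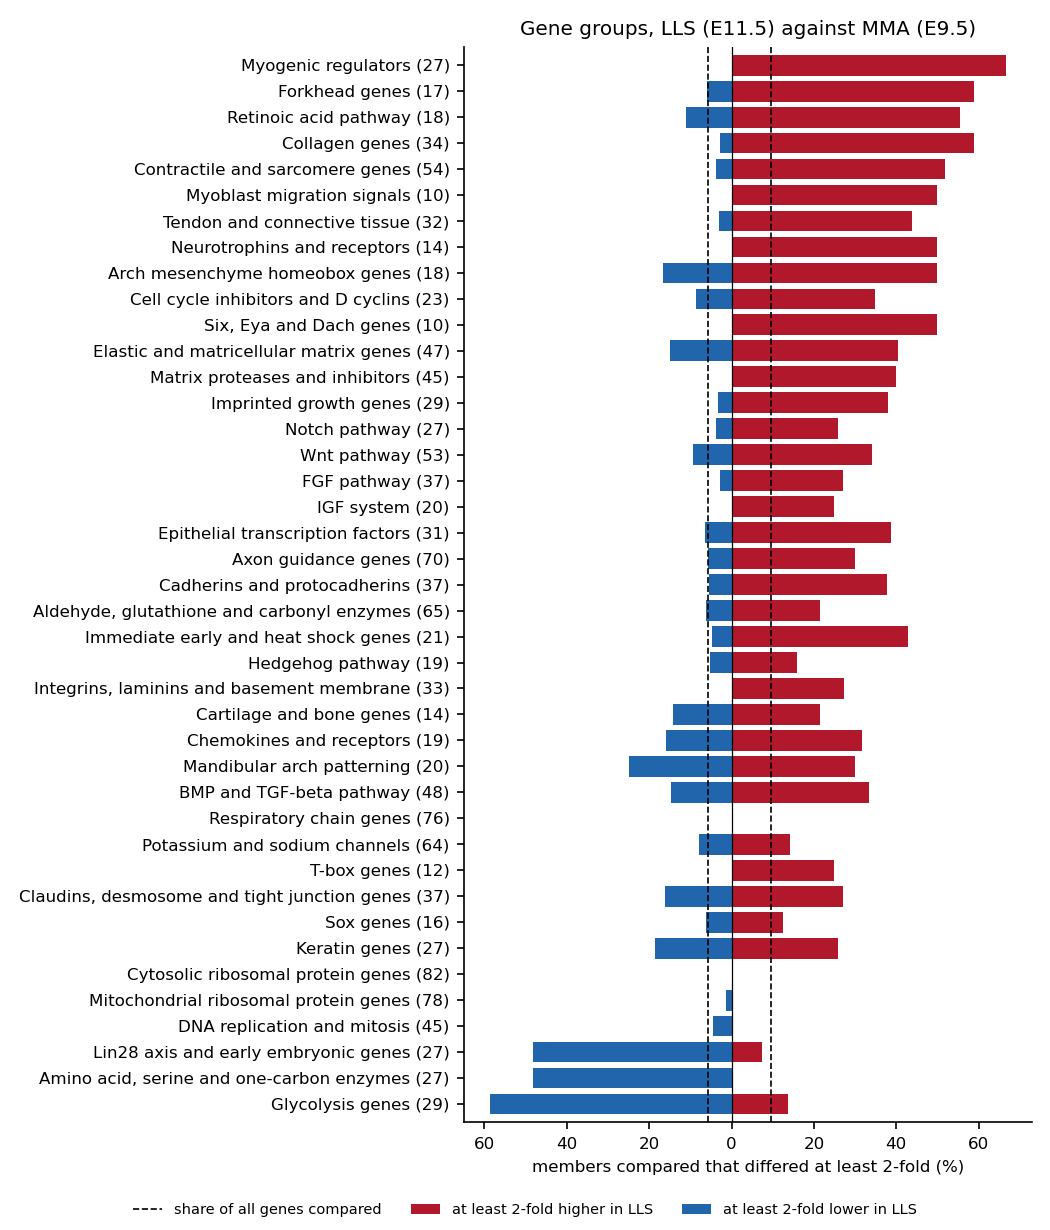
Share of the members of each gene list (10 or more compared, cell type marker lists not drawn) that was at least 2-fold higher (right) or lower (left) in LLS than in MMA, in percent of the members compared, whose number is in brackets; lists are ordered by their median difference. The dashed lines mark the shares over all genes compared, 9.65% higher and 5.60% lower.

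Genes of glucose uptake and glycolysis had lower levels in LLS, and the lower levels ran from the glucose transporters through the enzymes, with Gapdh and Ldha inside 2-fold, to lactate export. Glycolysis splits glucose into pyruvate, which is either turned into lactate or burnt in mitochondria, and young embryos are known for a high rate of lactate production. The list had a median of -1.16, with 17 members lower by 2-fold or more and 4 higher. Slc2a3, which encodes the high-affinity glucose transporter GLUT3, had a scaled signal of 2324 in MMA and 138 in LLS, beside 357 in LMA and 92.4 in T. MMA was thus the highest of the 4 arrays, and LLS was 16.8-fold lower than MMA (log2 difference -4.07). Slc2a1, the gene of the widely used transporter GLUT1, was 3447 in MMA and 981 in LLS (-1.81). Lactate leaves the cell through the carrier encoded by Slc16a3, whose signal was 3601 in MMA and 322 in LLS, beside 451 in LMA and 128 in T. This was an 11.2-fold lower level in LLS than in MMA (-3.48), again with MMA above the 3 other arrays. Positions in mm9, per the file headers, are chromosome 6, 122678075 to 122678134, for the Slc2a3 probe and chromosome 11, 120820023 to 120820082, for that of Slc16a3.

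Among the enzymes, the hexokinase gene Hk2 was 459 in MMA and 181 in LLS (-1.34), whereas Hk1 was 6033 and 7378 (0.29). Phosphofructokinase, the main control point of the pathway, has 3 isoform genes: Pfkp went with 194 in MMA and 39.3 in LLS (-2.31), Pfkl with 777 and 199 (-1.97), and Pfkm, the muscle form, with 628 and 682 (0.12). The liver and platelet isoform genes were lower in LLS and the muscle one was level. Lower levels in LLS continued down the chain with Aldoa (aldolase, 41020 and 12840, -1.68), Tpi1 (-1.42, other probes -1.23 to -0.24), Pgk1 (-1.16, another probe -0.23), Pgam1 (-1.66), Eno1 (-1.22) and the pyruvate kinase gene Pkm (-1.12). Pdk1, which encodes the kinase that holds pyruvate out of mitochondrial oxidation, was 1543 in MMA and 382 in LLS (-2.01, other probes -2.02 to -0.14). Gapdh (-0.31) and Ldha (-0.69) stayed inside 2-fold by their brightest probe, but the other Ldha probe differed by -2.47 and the other Gapdh probes by -0.94 to -0.76. The lactate dehydrogenase gene Ldhb, whose product favours turning lactate back to pyruvate, went the other way, with 2644 in MMA and 7778 in LLS, beside 5601 in LMA and 2580 in T (1.56). The other 3 members higher in LLS were Pgm5 (5.88, though 1.15 by another probe), which encodes a phosphoglucomutase relative without that enzyme's activity that sits at muscle cell attachments, the muscle isoform gene Pgam2 (1.89) and the neuronal isoform gene Eno2 (at least 1.79). Of the 21 members past 2-fold, 12 had a second probe, and in all 12 every probe had the same direction.

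**Figure D3:**
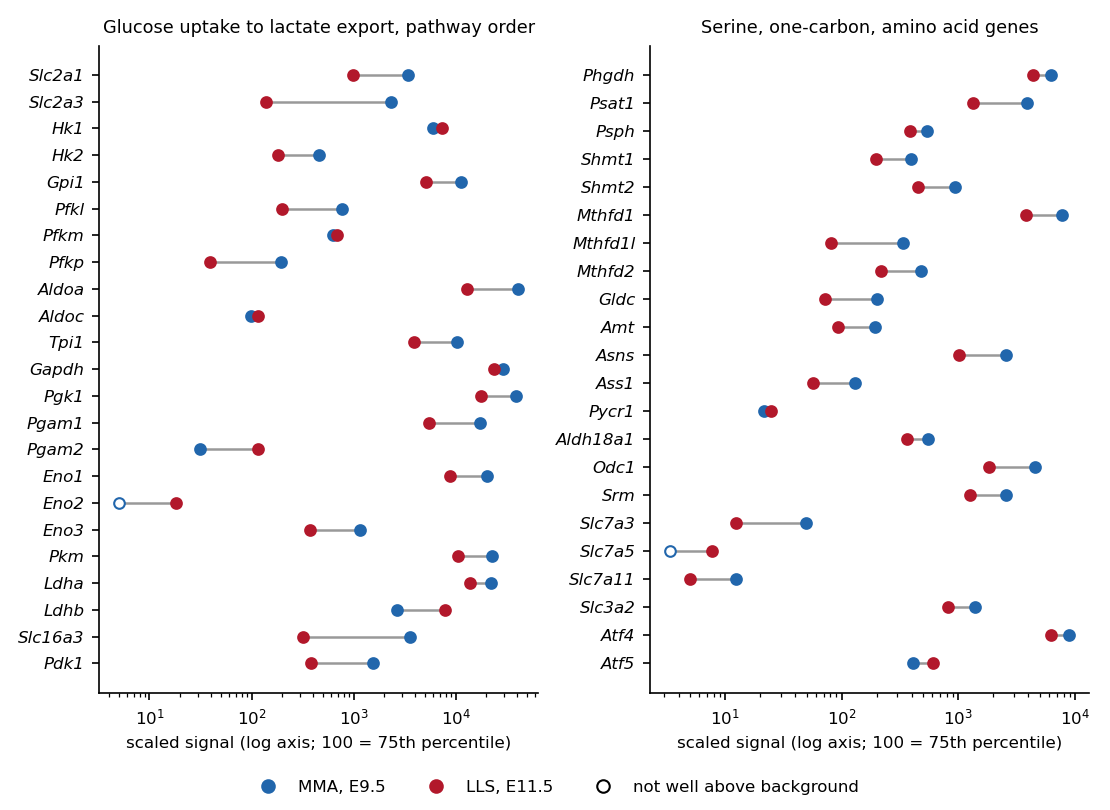
Scaled signal (log axis) of genes from glucose uptake to lactate export in pathway order (left) and of serine, one-carbon and amino acid genes (right), in MMA (blue) and LLS (red); open circles are not well above background. For most genes the MMA point lies to the right, most widely for Slc2a3 (2324 against 138) and Slc16a3 (3601 against 322), while Ldhb lies the other way.

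LMA, dissected at the same age as LLS, was set against the same MMA array, so the comparisons share 1 of their samples. Its values were -2.70 for Slc2a3, -2.997 for Slc16a3, -1.37 for Aldoa, -2.45 for Pdk1 and 1.08 for Ldhb, with a list median of -0.84. Directly between the E11.5 tissues, LLS minus LMA had a list median of -0.10. Genes that respond to low oxygen share regulators with glycolysis, and a list of 28 such genes outside glycolysis, drawn up after the glycolysis values were seen, had a median of -0.24, with 1 member lower by 2-fold or more and 2 higher. Ak4, an adenylate kinase gene, was the lower one (1261 in MMA and 285 in LLS, -2.14), and Vegfa (-0.39), Hif1a (-0.25) and Car9 (-0.47) stayed inside 2-fold.

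Many glycolytic promoters are known to carry the core letters of the hypoxia response element, so the 250 bases before each start were searched for ACGTG and, for the other strand, CACGT. Both are also contained in the E-box CACGTG. A gene with several starts counted once if any of them held a match. The letters were found for 13 of 28 glycolysis genes (46.4%), 9 of the 16 that were at least 2-fold lower and in the table (56.2%), 6 of 23 amino acid and one-carbon genes (26.1%) and 14 of 65 respiratory chain genes (21.5%). Over all genes in the table the share was 18.5% (4998 of 27025), and over the genes compared 23.8% (3006 of 12652). A match is a run of letters and not a measured binding site. Promoters of the lactate carrier gene and of Pgk1 are shown because each holds a pair of matches, in capitals (RefSeq, build GRCm38.p6, plus strand, Slc16a3 at chr11:120948817-120949066 and Pgk1 at chrX:106186850-106187099).
Slc16a3: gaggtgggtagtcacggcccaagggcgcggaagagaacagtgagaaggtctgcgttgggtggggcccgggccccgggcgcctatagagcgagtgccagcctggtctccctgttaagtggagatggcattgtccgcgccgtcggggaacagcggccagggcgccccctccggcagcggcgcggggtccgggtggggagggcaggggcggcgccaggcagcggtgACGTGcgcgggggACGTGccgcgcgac
Pgk1: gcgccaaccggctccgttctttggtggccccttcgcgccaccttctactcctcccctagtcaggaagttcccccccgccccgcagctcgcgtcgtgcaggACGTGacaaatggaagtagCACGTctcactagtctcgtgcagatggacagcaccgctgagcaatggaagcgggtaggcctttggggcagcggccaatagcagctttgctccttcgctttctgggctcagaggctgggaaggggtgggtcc

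Enzymes of serine, glycine and folate metabolism, which feed nucleotide synthesis, were lower in LLS as well. The list had a median of -0.99, with 13 of 27 genes lower by 2-fold or more and 0 higher. Mthfd1l, of the mitochondrial folate pathway, had a scaled signal of 338 in MMA and 81.5 in LLS, beside 68.0 in LMA and 51.2 in T (-2.05). Psat1, of serine synthesis, was 3884 in MMA and 1333 in LLS, beside 1329 in LMA and 2042 in T (-1.54). In both genes MMA was the highest array and LLS and LMA lay close together. Lower levels in LLS were also found for the glycine decarboxylase gene Gldc (199 and 71.7, -1.48), the asparagine synthetase gene Asns (2570 and 1010, -1.35), the mitochondrial folate genes Mthfd2 (-1.15) and Shmt2 (-1.05), and Odc1 (4520 and 1849, -1.29), the first enzyme of polyamine synthesis. The first enzyme gene of serine synthesis, Phgdh, was within 2-fold (6227 and 4402, -0.50), as was Atf4, a transcription factor gene of amino acid shortage (-0.52). The 8 called members with another probe had the same direction by every probe.

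Genes of the early embryo around Lin28 were lower in LLS. LIN28A and LIN28B are RNA-binding proteins that keep let-7 microRNA precursors from maturing, and let-7 and miR-125 are known in turn to target Lin28 transcripts. Lin28a had a scaled signal of 2130 in MMA and 24.6 in LLS, beside 28.7 in LMA and 18.8 in T (LLS minus MMA -6.44, another probe -4.14), and Lin28b 4458, 283, 276 and 14.9. Both E11.5 arrays were thus far below MMA, and T minus LLS was -4.24 for Lin28b and -0.39 for Lin28a. The secreted inhibitor gene Wfikkn1 was 1364 in MMA and 12.3 in LLS (-6.79), the protogenin gene Prtg 2466 and 52.8 (-5.55), its relative Igdcc3 3873 and 293 (-3.72), and the nuclear receptor gene Nr6a1 1251 and 54.9 (-4.51). Mycn, a growth-promoting transcription factor gene, was 4367 in MMA and 1576 in LLS (-1.47), and Dnmt3b, a methyltransferase gene of the early embryo, 1664 and 427 (-1.96, other probes -2.23 to -0.64). The DNA-binding factor genes Arid3a (-1.72) and Arid3b (-1.70, other probes -1.98 to -0.69) and the stem cell genes Sall4 (-1.35) and Utf1 (-1.78) were lower too. The known let-7 target gene Hmga2 was within 2-fold (5068 and 6579, 0.38), as were the RNA-binding protein genes Igf2bp1 (-0.59), Igf2bp2 (-0.17) and Igf2bp3 (-0.52). Higher in LLS by the brightest probe were Dnmt3a (3.18) and Igdcc4 (1.93), but their other probes differed by -0.24 and 0.01.

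Host transcripts of some microRNAs were on the array, among them Mir100hg, whose span holds a let-7 gene. The mature microRNAs themselves were not measured by the array. These host transcripts were looked up after the Lin28 values were seen. Mir100hg had a scaled signal of 57.0 in MMA and 530 in LLS, beside 940 in LMA and 185 in T, a log2 difference of 3.22 between LLS and MMA by this probe and 3.24 by the other. MMA was the lowest of the 4 arrays. Mir99ahg was 103 in MMA and 307 in LLS, beside 270 in LMA and 317 in T (1.57, other probes 0.74 to 1.94), and Mir205hg, the host of an epithelial microRNA, 457 in MMA and 917 in LLS (1.01). The blood cell host transcript Mir142hg was lower in LLS (72.0 and 15.5, -2.22). The annotated span of Mir100hg (chromosome 9, 41376526 to 41615185, GRCm38.p6) holds 3 microRNA genes on its strand, whose mature 5p sequences are given because let-7 and miR-125 are the sequences that pair with Lin28 transcripts. The seed, bases 2 to 8, is in capitals, and the 3 seeds differ. All 8 let-7 5p names in the RefSeq table share the seed shown for let-7a.
mmu-let-7a-5p: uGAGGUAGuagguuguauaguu
mmu-miR-125b-5p: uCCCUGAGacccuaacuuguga
mmu-miR-100-5p: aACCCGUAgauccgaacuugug

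Imprinted genes, which are expressed from 1 parental copy and many of which set embryonic growth, were more often higher than lower in LLS. Past 2-fold were 11 of 29 on the higher side and 1 on the lower (median 0.68). Cdkn1c, the cell cycle inhibitor p57, had a scaled signal of 5243 in MMA and 34490 in LLS, beside 27960 in LMA and 38250 in T (2.72). Its level in MMA stood below those of the other 3 arrays. Plagl1, a zinc finger growth regulator gene, was 2835 in MMA and 18260 in LLS (2.69, other probes 0.03 to 1.70). The Notch-related ligand gene Dlk1 was 6164 and 17250 (1.48) and the noncoding RNA gene Meg3 of the same domain 4716 and 11760 (1.32, other probes 0.90 to 1.43). Smaller differences were found for Ndn (1.28), Nnat (1.16) and Igf2 (1.08). By their brightest probes, H19 (0.33, but 1.14 by another probe), Peg3 (0.23), Mest (-0.71) and Grb10 (-0.53) were within 2-fold. Snrpn was lower (-1.05, other probes -1.04 to -0.90). Beyond the imprinted genes, the inhibitors Cdkn2c (at least 2.72) and Cdkn2b (at least 2.68, another probe 1.03) and the antiproliferative gene Btg2 (1.22) were higher in LLS, and Cdkn1a, the inhibitor p21, was lower (122 and 52.7, -1.22). Genes of DNA replication and mitosis had a median of -0.51, with 2 of 45 at least 2-fold lower, Mybl2 (-1.40) and Mcm10 (-1.20), and 0 higher, and Mki67 was level (4295 and 4121, -0.06). In the insulin-like growth factor system the ligand gene Igf1 was 82.5 in MMA and 678 in LLS, beside 627 in LMA and 1121 in T (3.04, other probes 0.94 to 2.65), and Pappa, the protease that frees the ligand from its binding proteins, 11.8 and 79.1 (2.74). The receptor genes Igf1r (0.47) and Igf2r (0.49) stayed inside 2-fold, and 5 of 20 members of the system were at least 2-fold higher and 0 lower.

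Genes that pattern the arch did not move in 1 direction: 6 of 20 were higher in LLS by 2-fold or more and 5 lower, with a median of 0.11. The endothelin ligand gene Edn1 was lower, as were several Dlx homeobox genes, of which Dlx5 and Dlx6 are known to act downstream of it. Edn1 had a scaled signal of 150 in MMA and 19.3 in LLS (-2.96), Dlx5 268 and 23.6 (-3.51), Dlx6 104 and 16.8 (-2.63), and Dlx2 865 and 233 (-1.89). Dlx4 was at least 21.4-fold lower, as it was not well above background in LLS. Dlx3 (-0.16) and Dlx1 (-0.57) were within 2-fold, and the receptor gene Ednra was higher (279 and 730, 1.39). The homeobox genes of the distal arch tip were lower in LLS: Msx1 was 2630 in MMA and 299.8 in LLS, beside 2508 in LMA and 60.03 in T, Msx2 1068, 43.1, 499 and, not well above background, 3.66 in T, and Prrx2 5363, 756, 2021 and 209. Here LLS stood below both arch arrays, since Msx1 in LMA minus MMA was -0.07. Irx3, an Iroquois homeobox gene, was also lower in LLS than in both arch arrays, though highest in LMA (172 in MMA, 288 in LMA, and 13.3-fold lower in LLS than in MMA), and 4 of 5 Irx genes were at least 2-fold lower in LLS and 0 higher.

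Other homeobox genes of facial mesenchyme were higher in LLS. Among aristaless genes, known from frontonasal and distal arch mesenchyme, Alx4 was 84.2 in MMA, 964 in LLS and 2723 in LMA (3.52) and Alx1 was 15.5 in MMA and 93.4 in LLS (2.59). Both were higher in both E11.5 tissues and highest in LMA. The odd-skipped genes stood otherwise: Osr1 was 7.31 in MMA and 1129 in LLS, beside 472 in LMA and 132 in T, and Osr2 15.8, 338, 34.8 and 225 (4.42, another probe 2.60). Both were highest in LLS. Gsc was 18.7 in MMA and 847 in LLS (5.50), Six2 9.20-fold higher (3.20, another probe 0.27), Meox2 46.9 and 452 (3.27) and Pax9 10.4 and 116 (3.47). The arch genes Barx1 (-0.28), Lhx6 (0.39), Lhx8 (0.71) and Hand2 (0.53) were within 2-fold.

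**Figure D4:**
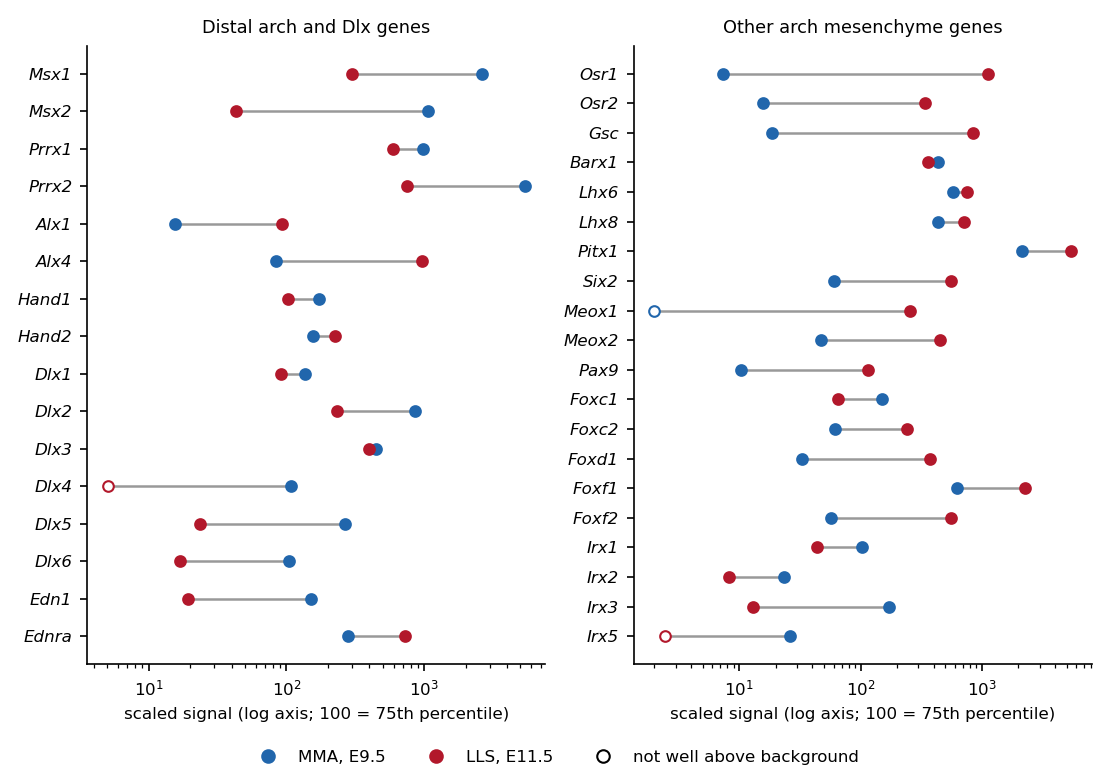
Scaled signal (log axis) of distal arch and Dlx genes (left) and of other arch mesenchyme genes (right) in MMA (blue) and LLS (red); open circles are not well above background. Msx, Prrx2, Dlx5, Dlx6, Edn1 and Irx genes have the MMA point to the right, while Alx1, Alx4, Osr1, Osr2 and Gsc have the LLS point to the right.

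Forkhead genes were higher in LLS, 10 of 17 at least 2-fold and 1 lower (median 1.61). The mesenchymal genes Foxd1 (33.0 in MMA, 373 in LLS, 38.4 in LMA) and Foxf2 (57.5, 558 and 94.9) were high in LLS and low in both arch arrays. Foxf1 was 628 in MMA and 2258 in LLS (1.85), and Fendrr, the noncoding RNA gene next to it, 129 and 738 (2.51). Foxd1, Foxf1 and Foxf2 are known targets of Hedgehog signals from epithelium. Shh, the ligand gene, was 120 in MMA, 499 in LLS and 5.31 in LMA (2.06), the readout gene Gli1 721 and 1756 (1.28, another probe 0.95), and the readout gene Ptch1 548 and 738 (0.43, within 2-fold). Over the Hedgehog list 3 of 19 genes were at least 2-fold higher and 1 lower, Gas1 (-1.02), a co-receptor. Retinoic acid, a vitamin A derivative, is made by retinaldehyde dehydrogenases and removed by Cyp26 enzymes. Aldh1a2 was not well above background in MMA, but reached 567 in LLS, beside 510 in LMA and 76.9 in T, which is at least 108-fold higher in LLS than in MMA. Cyp26b1 was 18.5, 408, 454 and 178 in the same order (4.46), so genes of synthesis and removal were both higher. The receptor genes Rarb (1.84), Rxra (1.53) and Rara (1.28, another probe 0.95) were higher and the carrier genes Crabp1 (-1.43) and Rbp4 (-1.72) lower.

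Growth factor genes differed in both directions. Among FGF ligands, Fgf8, of the early oral ectoderm, was 507 in MMA and 22.8 in LLS, beside 28.7 in LMA and 15.2 in T (-4.48). Fgf18 was 23.2 in MMA and 329 in LLS, beside 140 in LMA and 368 in T (3.83), and Fgf9 23.8 in MMA and 153 in LLS (2.68). The FGF readout gene Etv4 was higher (218 and 995, 2.19), whereas the readout genes Etv5 (0.31), Spry1 (0.42), Spry2 (-0.32) and Dusp6 (-0.66) were within 2-fold. Of 37 FGF pathway genes, 10 were at least 2-fold higher and 1 lower. In the Wnt pathway 18 of 53 were higher and 5 lower (median 0.51). The R-spondins amplify Wnt signals through Lgr receptors, and Rspo1 (28.2 and 287, 3.34), Rspo3 (21.8 and 173, 2.99, another probe 1.075) and Lgr5 (26.1 and 306, 3.55) were all higher in LLS. So were the antagonist genes Wif1 (3.48), Sostdc1 (2.14) and Sfrp2 (1.99). Wnt ligand genes went both ways. Wnt9a (3.29), Wnt7b (2.72, another probe 1.695), Wnt5b (1.18, another probe 1.25) and Wnt2 (1.13) were higher, and Wnt4 (0.255), Wnt5a (-0.145) and Wnt6 (-0.25) were among those within 2-fold. The antagonist gene Dkk1 was lower (85.7 in MMA, 6.998 in LLS and 61.5 in LMA, -3.61), as were the ligand genes Wnt9b (-2.47) and Wnt3 (-2.36) and the Wnt-responsive factor gene Tcf7 (-2.34, other probes -2.31 to -0.92), while the readout gene Axin2 was within 2-fold (0.21).

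In the BMP and TGF-beta list, 16 of 48 genes were at least 2-fold higher and 7 lower. Tgfb2 was 65.6 in MMA and 736 in LLS, beside 1534 in LMA and 606 in T (3.49), and Tgfb3 38.8 in MMA and 295 in LLS (2.93). The activin-type ligand genes Inhba (at least 3.56) and Inhbb (at least 2.87) and the activin antagonist gene Fst (not well above background in MMA, 172 in LLS, at least 5.03) were higher as well. Bmp4, the main BMP gene of the distal arch, was level (893 and 895, 0.00), and Bmp7 (0.10) and Bmp5 (-0.525) were within 2-fold. The ligand genes Bmp2 (1.85), Bmp3 (1.39, other probes 0.895 to 1.999), Bmp6 (at least 1.86) and Gdf5 (at least 3.68) were higher. Lower were the ligand gene Gdf6 (-1.22), the receptor gene Bmpr1b (-1.71) and Bmper (-2.39). Of the genes known to respond to BMP, the inhibitors Smad6 (0.14) and Smad7 (-0.19) were within 2-fold, and others were lower: Id1 was 3670 in MMA and 1123 in LLS (-1.71), Id3 2531 and 1080 (-1.23), and the pseudoreceptor gene Bambi 2684 and 599 (-2.17). The median of this list (0.11) changed sign among the processing settings tried.

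Muscle genes were higher in LLS, and many were not well above background in MMA. Of 27 myogenic regulators compared, 18 were at least 2-fold higher and 0 lower, and 12 of the 18 are bounds because MMA was not well above background. Lbx1 and Pax3, which mark migrating precursors, had scaled signals of 97.6 and 87.8 in LLS (for Pax3 at least 4.06, another probe 2.13), and Pax7, of muscle stem cells, 23.3. Of the commitment genes, Myod1 had 94.8 and Myog 298 in LLS, against 836 for Myog in LMA and 2362 in T. The fusion gene Mymx was 168 in LLS (at least 4.99) and its partner Mymk 10.9 (at least 1.05). Genes of the nerve-muscle contact were also higher: the acetylcholine receptor subunits Chrng (at least 4.34), Chrna1 (at least 2.82) and Chrnd (at least 2.67), the clustering gene Rapsn (2.83) and the receptor kinase gene Musk (at least 1.90). Dok7 was 2.24 higher by 1 probe and -0.02 by the other. Tbx1, of head mesoderm, was 170 in MMA and 1251 in LLS (2.88), and Tcf21 was within 2-fold (0.21). Myf5 and Myf6 were not well above background in either tissue. Among contractile genes 28 of 54 were higher and 2 lower, with Tnnt1, of slow skeletal muscle, at 138 in MMA and 3341 in LLS (4.60). Several of the higher ones were bounds, among them Myh3 and Ttn. Of 12 called contractile genes with another probe, 9 had the same direction by every probe. The exceptions were Mylpf (1.47, another probe -0.20), Ryr1 (1.96, another probe -0.26) and Myl6b (1.22, another probe -0.31). The lower pair were Myl7 (122 and 18.95, -2.68) and Myh7 (71.4 and 25.9, -1.46), which are best known from heart. Cardiac markers as a list had 6 of 15 higher and 3 lower with a summed signal of 994 in MMA and 935 in LLS. Nppa, Nppb, Myl2, Gata4 and Bmp10 were not well above background in either tissue. For the myoblast guidance axis, the ligand gene Cxcl12 was 1637 and 3047 (0.90) and the scavenger receptor gene Ackr3 210 and 1397 (2.74). The receptor gene Cxcr4 was 15.85 and 33.5 (1.08). Met, the receptor that guides somite-derived precursors, was 141 and 157 (0.16), and its ligand gene Hgf 70.3 and 134.8 (0.94, other probes 0.17 to 0.58).

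**Figure D5:**
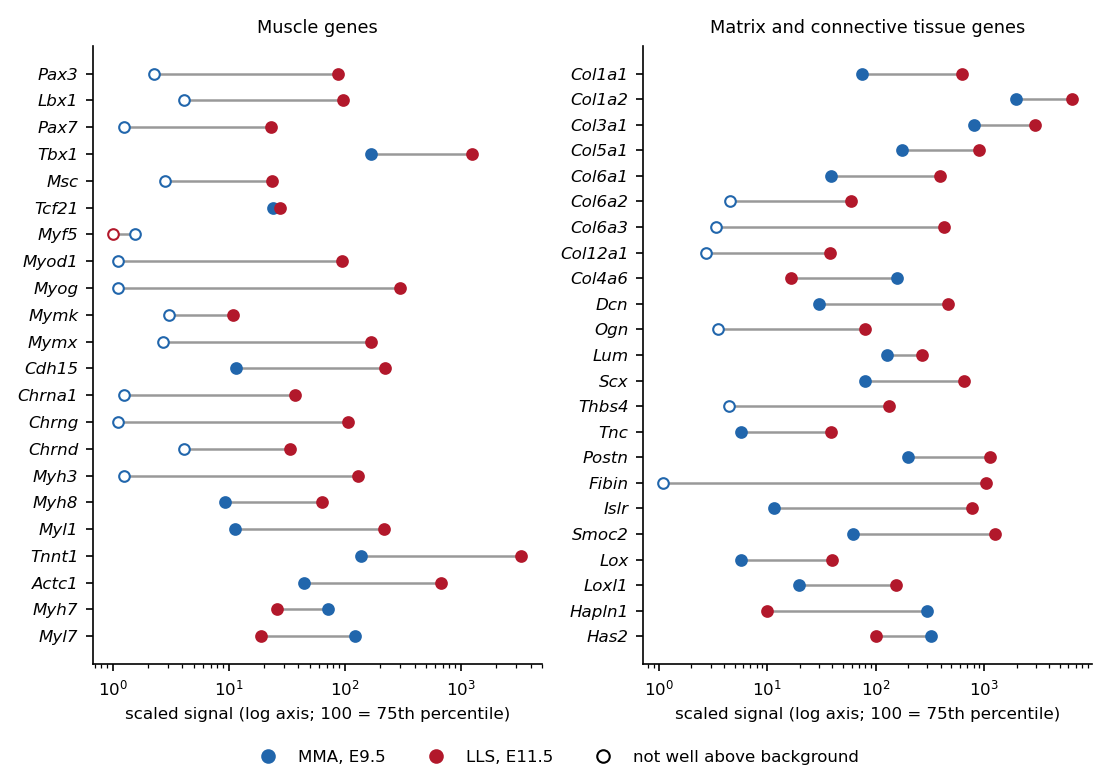
Scaled signal (log axis) of muscle genes (left) and matrix genes (right) in MMA (blue) and LLS (red); open circles are not well above background. Most muscle genes have an open MMA point and a filled LLS point, and Col4a6, Hapln1, Has2, Myl7 and Myh7 are the genes plotted whose filled MMA point lies clearly to the right.

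The extracellular matrix differed by type. Fibrillar and microfibrillar collagen genes were higher in LLS: 20 of 34 collagen genes were at least 2-fold higher and 1 lower (median 1.16). Col1a1 was 75.2 in MMA and 623 in LLS, beside 991 in LMA and 3327 in T (3.05, with 2.96 to 3.23 by other probes), Col3a1 803 in MMA and 2953 in LLS (1.88), and Col5a1 173 and 894 (2.37). The collagen VI genes, whose chains form a beaded network around muscle, were Col6a1 with 39.0 in MMA and 394 in LLS, beside 849 in LMA and 3081 in T (3.34), Col6a2 (at least 3.49, another probe 0.77) and Col6a3 (at least 6.36, but 0.50 to 2.14 by other probes). Basement membrane collagen genes behaved otherwise, since Col4a1 (0.64) and Col4a2 (0.18) were within 2-fold and Col4a6 was 157 in MMA and 16.6 in LLS (-3.24). Hyaluronan, the swelling sugar polymer of young mesenchyme, is made by Has2 and held by link proteins. Has2 was 326 in MMA and 100.1 in LLS (-1.71), and the link protein genes Hapln1 (296 and 9.92, -4.90) and Hapln3 (190 and 64.1, -1.57) were lower too. Versican, the proteoglycan they bind, had its gene Vcan within 2-fold (0.83).

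Of 32 tendon and connective tissue genes 14 were higher and 1 lower in LLS by 2-fold or more. Scx, of tendon precursors, was 80.5 in MMA and 658 in LLS, beside 2177 in LMA and 612 in T (3.03), Postn 199 in MMA and 1144 in LLS (2.52) and Ogn at least 3.94 higher. Elastic and matricellular matrix genes had 19 of 47 higher and 7 lower, the lower ones including Has2, Hapln1 and Hapln3 above. Among the higher, Fibin was not well above background in MMA and was 1034 in LLS, beside 126 in LMA and 3672 in T, at least 197-fold higher in LLS than in MMA. The stromal gene Islr was 11.46 in MMA and 770 in LLS (6.07), and the crosslinking enzyme genes Lox (2.77, another probe 0.39) and Loxl1 (2.96) were higher. Of 45 genes of the Mmp, Adam and Adamts families and their inhibitors, 18 were at least 2-fold higher and 0 lower. Members of these families were not sorted by enzyme activity, so the count is not one of active matrix proteases. The largest differences among those measured in both tissues were those of Adam22 (3.16), Adamts17 (3.01, other probes 0.32 to 3.34) and Adamts2 (2.63). Timp2, an inhibitor gene, was 618 in MMA and 2579 in LLS (2.06, another probe 0.90), and Mmp2 was within 2-fold (0.20).

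Epithelial genes differed in both directions. Among keratin genes of simple epithelium, Krt8, Krt18 and Krt7 were lower in LLS and Krt19 was within 2-fold (365 and 248, -0.56). Krt8 was 3178 in MMA and 1329 in LLS, beside 128 in LMA and 1017 in T, Krt18 8910 in MMA and 2890 in LLS (-1.62), and Krt7 157 and 68.8 (-1.19). Those of stratified epithelium were Krt5 with 6.62 in MMA and 431 in LLS, beside 342 in LMA and 17460 in T (6.03) and Krt15 with 134, 2428, 321 and 18620 (4.18). Krt14 was within 2-fold (563 and 432, -0.38), and 7 of the 27 keratin genes in the list were at least 2-fold higher and 5 lower. Krt6a, which that list leaves out, was 8.41 in MMA and 149.7 in LLS, beside 14.6 in LMA and 12560 in T (4.15). Transcription factor genes of epithelial barrier and stratification were higher, namely Grhl3 (35.7 and 444, 3.64), Elf5 (6.03 and 69.2, 3.52), Tfap2c (115 and 680, 2.57) and Klf4 (2.49). Trp63, the basal cell regulator gene, was within 2-fold (0.48), and the ectodermal factor gene Sp6 was lower (224 and 45.2, -2.31). Over the list 12 of 31 were higher and 2 lower.

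Nerve and crest genes were among those higher in LLS. The Schwann cell and crest genes Sox10 (7.06 and 45.7, 2.69), Ngfr (25.6 and 238, 3.22) and Ednrb (11.7 and 75.7, 2.69) were higher, with 7 of 16 markers at least 2-fold higher and 0 lower and a summed signal of 2496 in MMA and 2869 in LLS. Neuron markers had 5 of 15 higher and 0 lower (summed 2847 and 3045), among them the neurofilament genes Nefm (at least 4.66, another probe 2.51) and Nefl (2.20). S100b, Prph, Neurod1, Neurog1 and Neurog2 were not well above background in either tissue. Neurotrophin and GDNF family genes had 7 of 14 higher and 0 lower, with the ligand gene Ntf3 at 198 and 424 (1.095) and the receptor genes Gfra1 (at least 2.67), Gfra3 (2.54) and Gfra2 (1.29). The receptor genes Ret and Ntrk3 were not well above background in either tissue. Of 70 axon guidance genes 21 were at least 2-fold higher and 4 lower. Slitrk6, a neurite growth gene, was not well above background in MMA and was 599 in LLS, beside 213 in LMA and 461 in T, at least 114-fold higher in LLS than in MMA. The repellent and attractant genes Sema3f (410 and 1605, 1.97) and Ntn1 (6.57 and 42.3, 2.69) were higher. So was the ephrin receptor gene Epha3 (60.8 and 410, 2.76, other probes 1.15 to 2.54), and the netrin receptor genes Unc5b (-1.28) and Dcc (-0.02) were lower and level.

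Blood, vessel and extraembryonic markers also differed, and their part in the results above was not tested. The embryonic globin gene Hbb-y was level, with 47240 in MMA and 48610 in LLS (0.04), while the erythroid factor genes Gata1 (267 and 54.6, -2.29), Gfi1b (-2.19) and Klf1 (197 and 49.5, -1.99) were lower. The 17 erythroid markers had 1 higher and 4 lower and a summed signal of 159018 in MMA and 135303 in LLS. Endothelial markers had 1 of 17 higher and 3 lower (summed 4942 and 3005), with Tek at 70.4 and 20.3 (-1.79), and Flt4 and Lyve1 were not well above background. Macrophage markers had 13 of 21 higher and 0 lower (summed 2953 and 3621), among them Cx3cr1 (7.26 and 81.1, 3.48, another probe 1.40) and C1qc (at least 3.94), and Spi1 was not well above background. Of 17 yolk sac genes compared, looked up after the values were seen, 0 were higher and 6 lower. Afp was 130 in MMA, 13.5 in LLS, not well above background in LMA and 11.9 in T (-3.27), and Alb, Fga, Fgb, Fgg and Vil1 were not well above background in MMA or LLS. Placental genes chosen in the same way had 0 of 8 higher and 4 lower and included Rhox4a (87.1 and 6.09, -3.84) and Prl3b1 (56.4 and 14.6, -1.95), both lower, while Tpbpa, Ctsq and Syna were not well above background.

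Several of the largest differences belonged to none of these groups. Hopx, which encodes a small homeodomain protein, was 509 in MMA and 10.3 in LLS (-5.62), and Vgll2, a cofactor gene known from pharyngeal arches, 1212 and 137 (-3.15, another probe -3.26). Etv2, a master gene of blood vessel progenitors, was 69.2 and 6.36 (-3.44). Higher in LLS were the opioid precursor gene Penk (37.6 and 983, 4.71, another probe 2.70), the membrane protein gene Itm2a (620 and 10050, 4.02), the zinc finger gene Bcl11a (59.8 and 885, 3.89, other probes 3.19 to 4.52) and Dio2 (10.5 and 212, 4.34), which encodes the enzyme that activates thyroid hormone. Agtr2, an angiotensin receptor gene, was not well above background in MMA and 372 in LLS (at least 6.14), and the cysteine protease gene Ctsk was at least 5.51 higher. In LMA minus MMA, which shares the MMA array, the values were -5.01 for Hopx, -1.15 for Vgll2, -2.97 for Etv2, 5.16 for Penk, 3.49 for Itm2a, 3.97 for Bcl11a and 3.35 for Dio2.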

How the data were processed

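Gene expression was measured on 4 single-colour Agilent mouse arrays, 1 per pooled tissue, of which MMA and LLS are compared. The authors' deposited scanner files hold intensity values made with Agilent Feature Extraction, version 10.7.1.1 per the file headers (9.5.1.1 in the submitters' processing notes), with the background subtracted, dim spots given surrogate values and no scaling between arrays. The deposited value table also holds intensity, brought to nearly 1 distribution by a step not given in the sources used here, and served as an alternative.

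Flagged and control spots were left out, which kept 56601 probes. Of these, 32990 were named by RefSeq accession and 520 by an older symbol through RefSeq (GRCm38.p6), 12188 kept the file's symbol and 10903 had none. Log2 of the processed signal minus the array's 75th percentile was taken (a signal of 422 in MMA and 456 in LLS), repeated spots were averaged, and the brightest probe stood for each gene. A value not well above background was, where lower, raised to the array's lowest well-above-background signal (scaled 5.26 in MMA and 4.68 in LLS), so its difference is a bound. With no replicates, a gene was called by size (2-fold or more) and not by a test. The steps were checked on simulated data. Alternatives used limma 3.58.1 in R 4.3.3, other steps Python 3.11.15 with pandas 2.3.3.

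Genes named are the 40 highest and 40 lowest measured in both tissues, the 15 largest bounds each way, and any list member. Some list members are counted but their values are not reported here. The comparison and its gene lists were chosen with earlier results of these data known. Hypoxia, yolk sac, placental and microRNA host lists were added after the values were seen.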

Additional observations from a re-analysis of the deposited data

How the results depend on the processing

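No paired analysis was possible because each tissue had 1 array, and no replicate could be left out. Counts of genes higher and lower in LLS (1629 and 946) were 974 and 545 with normexp background correction, 2776 and 2021 with neither filter nor floor, which compared 26619 genes in place of 16885, and 544 and 147 with a 4-fold limit. With quantile normalization, cyclic loess, median scaling, percentiles over detected probes, both tissues detected, the median over probes and the deposited value table they stayed within 1.5 times, from 1259 to 1842 higher and from 749 to 1175 lower. In the 9 settings, all 110 genes of the rule by size kept their sign, as did 47 of 56 list medians. So did 573 of 574 called list members, the exception being Hoxb3 under the median over probes. The 110 genes and the called members were chosen for large differences on the same arrays, so a kept sign was likely from the start. The glycolysis median lay between -1.25 and -0.95. Values near background, such as MMA signals of Osr1 and Krt5, limit the precision of the largest differences.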

Other observations

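Stress and immediate early genes leaned to LLS, with 9 of 21 at least 2-fold higher and 1 lower. The small heat shock protein gene Hspb1 had a scaled signal of 514 in MMA and 4710 in LLS, beside 1774 in LMA and 11110 in T (LLS minus MMA 3.20), Jun was 216 in MMA and 1187 in LLS (2.46) and Fosl2 15.8 and 79.4 (2.33), while Atf3 was lower (36.9 and 9.07, -2.02). Nr4a1 (-0.43) and Junb (-0.75), which respond to the same stimuli, were within 2-fold.

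Cell adhesion genes of the cadherin family had 14 of 37 at least 2-fold higher in LLS and 2 lower. The planar polarity pair Fat4 (15.8 and 97.0, 2.62) and Dchs1 (98.3 and 439, 2.16, another probe 0.88) were both higher, as were Cdh4 (2.83) and Pcdh10 (3.20), and Pcdh19 (-1.96) and Celsr3 (-1.61) were lower. Among integrins and laminins 9 of 33 were higher and 0 lower, with the hemidesmosome genes Itgb4 (32.7 and 196, 2.59) and Lamb3 (9.27 and 36.0, 1.96) beside the mesenchymal genes Itga11 (2.59) and Itga8 (2.15).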
